A study of Mus musculus with 32 samples.

Results

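The comparison concerns Pmel T cells recovered from skin with melanoma-associated vitiligo and from tumor, 2 sites where the antigen of the T cell receptor can be present. Members were chosen by their labelled tissue alone, which gave 4 skin and 4 tumor libraries, 8 of the 32 bulk RNA sequencing libraries in the series, and all 8 were used. Pmel cells are CD8 T cells with a transgenic receptor for the melanocyte protein PMEL (gp100), so every cell carries a receptor of the same specificity. Skin cells are described as CD8+ Thy1.1+ cells and tumor cells only as Pmel CD8 T cells, and the labels give strain C57BL/6 and an age of 16 weeks for every sample. Skin cells were taken 45 days after the tumor was removed by surgery. The sources used here do not say when the tumor cells were taken or how tumors were dissociated. Skin was minced and kept for 45 minutes at 37 °C with collagenase IV and DNase I, so tissue, time and digestion cannot be told apart in any difference given here. The remaining 24 libraries, naive spleen cells, day 12 and memory lymph node cells, and cells of spleen, lung and liver, entered the fit too. They shared its estimate of spread, counted in the filter on expression and helped to set terms added in alternative fits. The labels do not state that each library came from a separate animal, so p-values measure the spread between these samples, which may be technical.

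Resident memory T cells stay in a tissue without recirculating. CD69 at the cell surface removes the egress receptor S1PR1, the integrin CD103 (Itgae paired with Itgb7) binds E-cadherin on epithelium, and CD49a (Itga1) binds collagen, while TGF-beta induces Itgae. In melanoma-associated vitiligo such cells persist in skin where melanocytes were destroyed. T cells in a growing tumor meet antigen continuously and often carry inhibitory receptors together with the transcription factor Tox.

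Values are TPM, transcript shares corrected for transcript length that sum to the same total in every library. Read counts were not used here, so depth is unknown. Differences are skin minus tumor on the log2(TPM + 1) scale with their standard error (SE), n = 4 libraries a group, tested with limma and adjusted by Benjamini-Hochberg over 19738 genes. That scale understates the change of low genes.

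The libraries differed in a way that ran nearly along the comparison. Tmf1, a Golgi-associated gene, read 39.2, 35.8 and 28.4 TPM in skin libraries 1 to 3, 11903 TPM in skin library 4, and 7917, 19327, 24830 and 48892 TPM in tumor libraries 1 to 4. Over the whole series 18 libraries lay at 635 TPM or above and 14 at 47.2 TPM or below, a split that the labels do not name and whose cause was not tested. Genes above 0 numbered 25281, 20631, 20975 and 34211 in skin libraries 1 to 4, against 30278, 29535, 33644 and 33620 in tumor libraries 1 to 4. Predicted genes took 55.0% of the TPM of skin library 4, with 26.2% in Gm10800 alone, against 8.94% to 15.7% in the other skin libraries and 9.74% to 35.0% in tumor libraries. Skin library 4 is therefore the only skin library on the tumor side of the split, and the comparison within the split is skin library 4 against the 4 tumor libraries. Where values are given by library, that of skin library 4 stands in its place, and the calls that do not hold with a term for the split are given beside the genes.

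Levels of T cell genes overlapped between the groups, with skin library 4 lowest. Receptor and identity genes (20, with Cd8a, Cd3e and Trac among them) summed to 26754, 35979, 31251 and 5837 TPM in skin libraries 1 to 4, against 36090.1, 30369, 26614 and 14397 TPM in tumor libraries 1 to 4 (exact two-sided permutation p = 0.8). None of them was called, against 3 called higher without skin library 4, and Foxp3, which defines regulatory T cells, was near 0 in all 8 libraries. Markers of other cells were present in both groups. Keratinocyte genes summed to 3947, 2615, 557 and 9866 TPM in skin libraries 1 to 4, against 985, 2776, 1559 and 384 TPM in tumor libraries 1 to 4. The sums overlapped, but 8 of the 17 genes were called higher in skin and 0 lower, with a median of 2.13, where 3.79% of all genes were called higher. The number was 5 without skin library 4, 3 in the fit of the 8 libraries alone and 10 with a term for the Tmf1 split. Myeloid genes summed to 667, 1704, 17988 and 1214 TPM in skin libraries 1 to 4, against 817, 978, 1104 and 731 TPM in tumor libraries 1 to 4, and the high value in skin came from library 3. Skin library 3 also had 453 TPM of hepatocyte genes, against 1.17 to 5.29 TPM in the other skin libraries. Its lung epithelial genes summed to 42.3 TPM, against 0.23 to 3.11 TPM, and its mast cell and basophil genes to 192 TPM, against 2.37 to 65.5 TPM. Melanocyte and melanoma genes summed to 16.7, 14.6, 8.58 and 218 TPM in skin, against 433, 1009.9, 473 and 456 TPM in tumor, without overlap. Erythroid genes, at 18.4 to 596 TPM in skin and 3610 to 12469 TPM in tumor, and B cell genes, at 26.7 to 132 TPM in skin and 149 to 284 TPM in tumor, were also lower in every skin library. Fibroblast genes were higher in every skin library, at 148 to 878 TPM against 18.6 to 48.6 TPM in tumor, as were Langerhans and dendritic genes, at 53.3 to 175 TPM against 24.2 to 33.6 TPM in tumor, and NK cell genes, at 128 to 1162 TPM against 36.5 to 111 TPM in tumor. Each of these non-overlapping sums gives an exact permutation p of 0.0286, the smallest that 4 against 4 libraries allow, and 0.0762 after adjustment over 16 lists. Most of the NK cell sum in every skin library was Gzma. The other 8 NK cell markers summed to 5.79, 20.8, 466 and 21.5 TPM in skin libraries 1 to 4, against 32.01 to 55.3 TPM in tumor, so only skin library 3 was above tumor for them. In bulk samples fewer cells of a type and less RNA per cell cannot be told apart, and the part of these cells in the results was not tested.

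**Figure D1:**
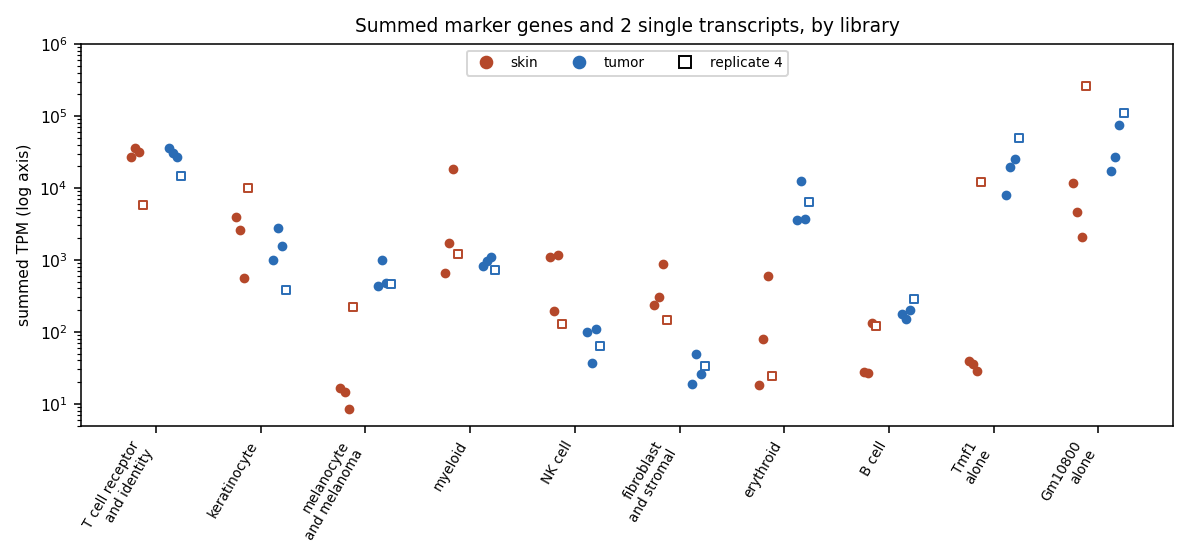
Summed TPM of marker genes of T cells and of other cell types, and TPM of Tmf1 and Gm10800, in each library on a log axis, with skin left of tumor and replicate 4 as an open square. Skin libraries 1 to 3 lie at 28.4 to 39.2 TPM of Tmf1 while skin library 4 lies with the tumor libraries, and the T cell sum of skin library 4 is 5837 TPM.

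Across all genes 1448 were called (7.34%), 749 higher in skin (3.79%) and 699 lower (3.54%), and the median difference over all genes was -0.091. All 4 skin libraries lay above all 4 tumor libraries for 1281 genes (6.49%) and below them for 1777 genes (9.0%). These shares are to be read beside every count of a list given below. Of the calls, 429 higher and 331 lower held whichever of the 8 libraries was left out. With a term for the Tmf1 split 705 genes were called higher (3.57%) and 584 lower (2.96%), of which 555 and 435 were also in the main calls. That term assumes the same effect of the split in every group. Within skin and tumor only skin library 4 against the other skin libraries informs it, and the rest comes from other groups. Of the 106 called genes that the naming rule gives, 83 were also called with that term. In the fit of only the 18 libraries of high Tmf1, skin is library 4 alone and is assumed to vary like the other groups. That fit called 1814 genes higher (9.19%) and 6091 lower (30.9%), so a call in it is no support for a gene. The spread of replicates was larger in skin, with a residual SD of 0.847 on the log2 scale against 0.512 in tumor. Where a call was lost on leaving out a library or in another fit, the value in brackets is its adjusted p there.

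**Figure D2:**
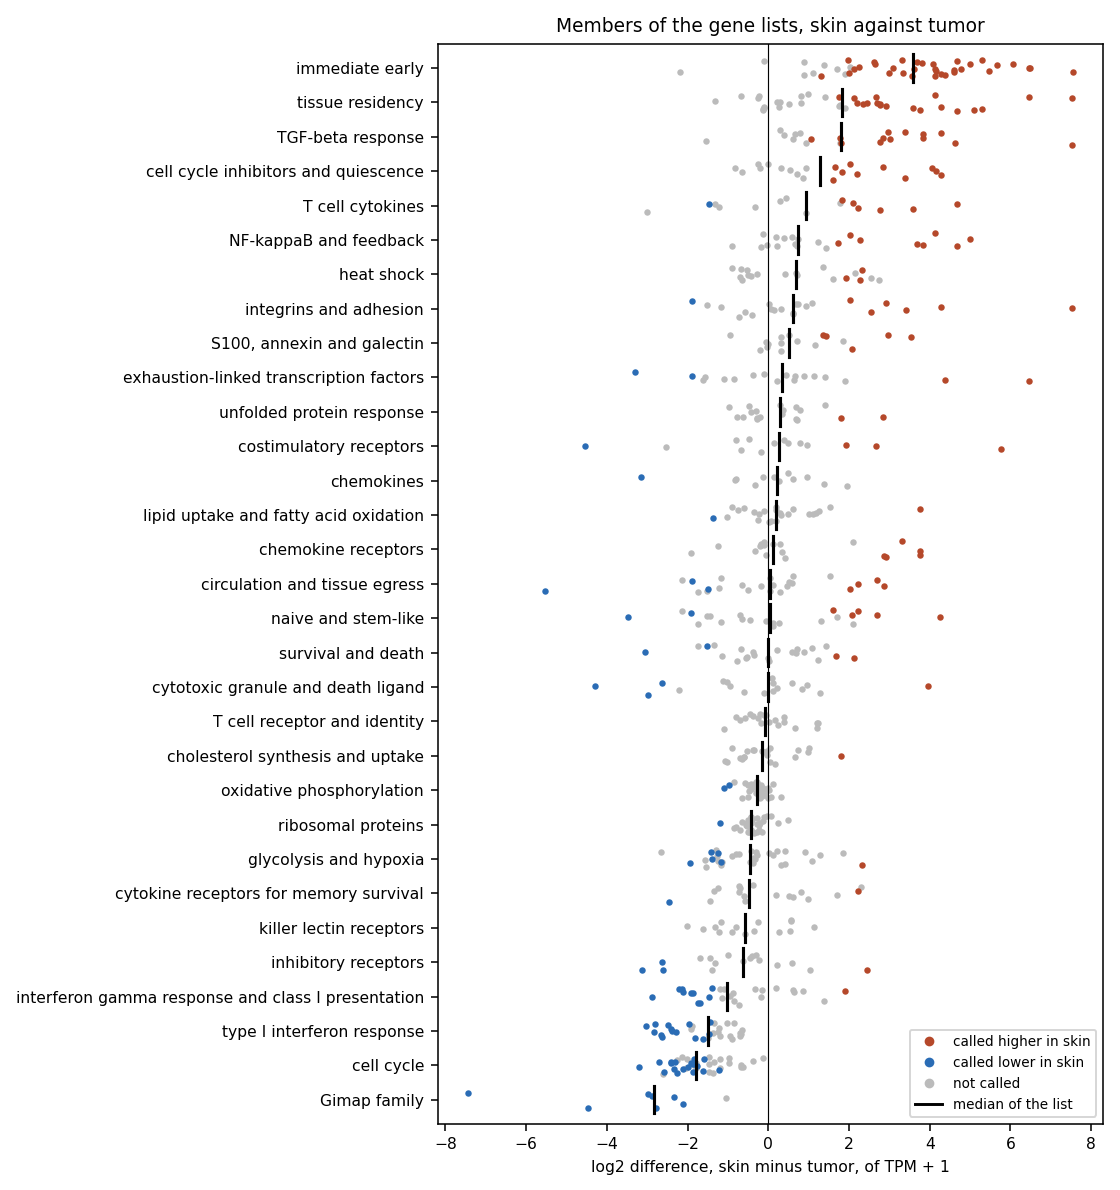
Difference in log2(TPM + 1), skin minus tumor, of each tested member of 31 gene lists, 1 point per gene, ordered by the median of the list (black bar). Immediate early genes have the highest median, 3.58, and the Gimap family the lowest, -2.84, against -0.091 over all genes.

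Genes of tissue residency were higher in skin or not called, led by the CD103 integrin. Of 38 residency genes tested, 19 were called higher and 0 lower, with a median difference of 1.84, where 3.79% of all genes were called higher. Cd69, Rgs1, Rgs2, Nr4a1, Nr4a2 and Tnfaip3 are also on the list of immediate early genes, which digestion can induce, as given below. Itgae, the alpha chain of CD103, had 502, 575, 339 and 107 TPM in skin libraries 1 to 4, against 0.52, 0.94, 1.6 and 0.18 TPM in tumor libraries 1 to 4. Every skin library was far above every tumor library (log2 difference 7.53 ± 0.61, limma adjusted p = 8.29e-10). Itgb7, its beta chain, had 530.4, 761, 569 and 123 TPM in skin libraries 1 to 4, against 33.1, 58.8, 36.6 and 28.1 TPM in tumor libraries 1 to 4 (log2 difference 3.41 ± 0.52, limma adjusted p = 4.67e-05). Both chains of the pair were thus higher in all skin libraries, library 4 being the lowest of the skin group for each.

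Cd69, whose protein holds S1PR1 inside the cell, had 1120.5, 988, 483 and 295 TPM in skin libraries 1 to 4, against 40.5, 33.7, 41.1 and 26.9 TPM in tumor libraries 1 to 4. The groups did not overlap (log2 difference 4.13 ± 0.46, limma adjusted p = 3.08e-07). Itga1, the collagen-binding CD49a chain, had 49.8, 61, 38.9 and 8.24 TPM in skin libraries 1 to 4, against 5.17, 3.83, 3.18 and 1.87 TPM in tumor libraries 1 to 4 (log2 difference 2.92 ± 0.66, limma adjusted p = 0.00432). Skin library 4 lay only slightly above tumor library 1 for Itga1, and within the high-Tmf1 libraries the difference was 1.09 (adjusted p = 0.0438). Cdh1, E-cadherin itself, had 123, 106, 73.3 and 34.1 TPM in skin libraries 1 to 4, against 2.18, 5.48, 4.59 and 1.12 TPM in tumor libraries 1 to 4 (log2 difference 4.28 ± 0.55, limma adjusted p = 2.9e-06). Keratinocytes also make E-cadherin, and skin library 4, which had the largest keratinocyte sum, had the lowest Cdh1 of the skin group. The part of the keratinocyte genes in this result was not tested. Of 22 integrin and adhesion genes 6 were called higher and 1 lower, Itga4, at -1.88, lost with the Tmf1 term (adjusted p = 0.324), and without skin library 2 or 3 or tumor library 1 or 3 none was called lower.

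The transcription factors most tied to residency did not separate the groups. Zfp683, which encodes Hobit, had 26.2, 16.8, 15.2 and 3.29 TPM in skin libraries 1 to 4, against 15.2, 13.7, 18.6 and 9.51 TPM in tumor libraries 1 to 4 (difference -0.14 ± 0.56, limma adjusted p = 0.954). Prdm1, which encodes Blimp-1, had 27.8, 24.3, 18.7 and 8.37 TPM in skin libraries 1 to 4, against 20.6, 20.4, 20.4 and 17.5 TPM in tumor libraries 1 to 4 (limma adjusted p = 0.962). Cxcr6, a chemokine receptor of resident cells, was abundant at both sites, with 1052, 1244, 1201 and 339.7 TPM in skin libraries 1 to 4, against 1271, 1131, 961 and 531 TPM in tumor libraries 1 to 4 (limma adjusted p = 0.955). For these genes skin libraries 1 to 3 overlapped the tumor libraries and skin library 4 lay below them, so in the high-Tmf1 libraries alone, where 30.9% of all genes were called lower, they were called lower too (differences -1.80, -1.14 and -1.44). Without skin library 4 the differences were 0.42, 0.23 and 0.33, none of them called.

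Among other residency genes, Qpct, a glutaminyl cyclase, had 149.6, 170.3, 159 and 43 TPM in skin libraries 1 to 4, against 1.91, 3.31, 3.66 and 1.35 TPM in tumor libraries 1 to 4 (log2 difference 5.08 ± 0.65, limma adjusted p = 2.62e-06). Rgs2, a brake on G protein signalling, had 2218, 2905, 2197 and 659 TPM in skin libraries 1 to 4, against 67.1, 38.1, 37.8 and 36.2 TPM in tumor libraries 1 to 4 (log2 difference 5.30 ± 0.43, limma adjusted p = 8.41e-10). Cd101, an inhibitory surface protein, was higher by 2.45 ± 0.56 (limma adjusted p = 0.00444), with 18.4 TPM in its lowest skin library against 11.3 TPM in its highest tumor library. The other residency genes that were called higher include Ahr, Skil and Rgs1, at differences of 2.19, 2.76 and 2.13, while Runx3, Bhlhe40 and Xcl1 were not called, at -0.25, 0.22 and 0.26.

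**Figure D3:**
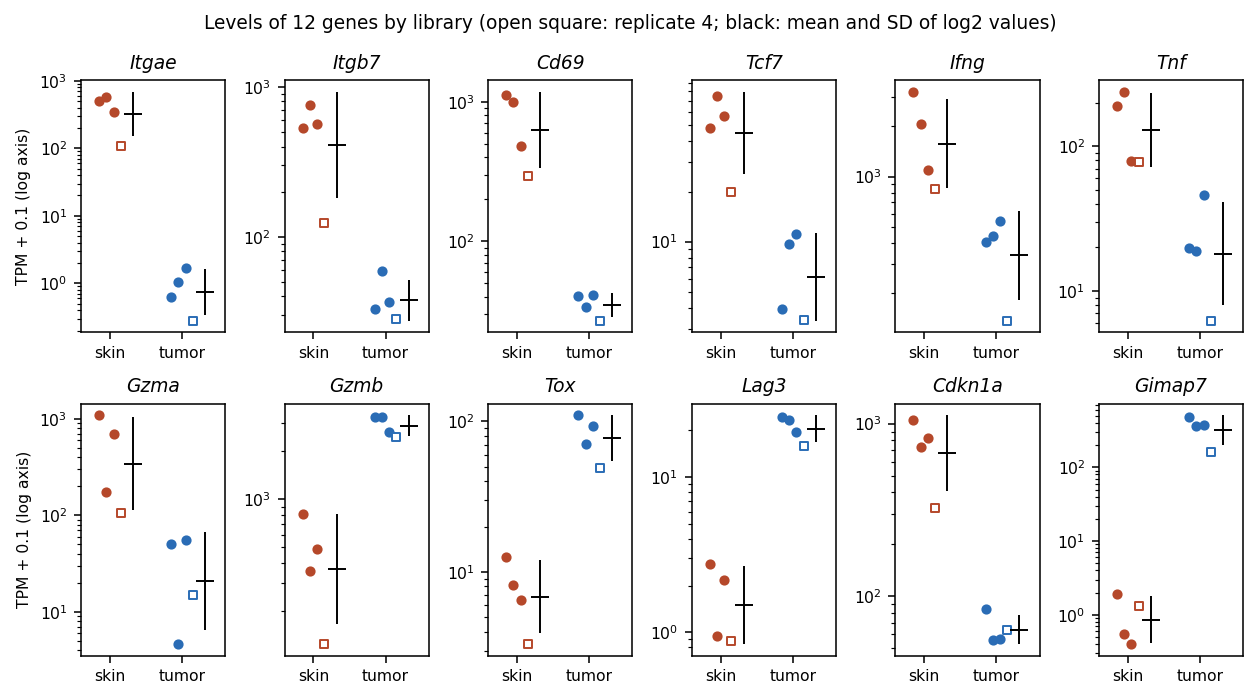
TPM + 0.1 of 12 genes in each library on log axes, skin left of tumor, replicate 4 as an open square, with the mean and SD of log2 values in black. Itgae, Itgb7, Cd69 and Cdkn1a are higher and Gzmb, Tox, Lag3 and Gimap7 lower in all 4 skin libraries than in all 4 tumor libraries.

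Genes that respond to TGF-beta were higher in skin or not called. Of 21 tested, 13 were called higher and 0 lower, with a median difference of 1.81. Itgae, Cdh1, Skil and Cish are on both this list and the residency list. Spsb1, an adaptor that lowers TGF-beta receptor levels, had 43.5, 49, 39.2 and 15 TPM in skin libraries 1 to 4, against 0.27, 0.07, 0.5 and 0.95 TPM in tumor libraries 1 to 4 (log2 difference 4.61 ± 0.51, limma adjusted p = 2.81e-07). Tgif1, a repressor that acts with Smad proteins, had 401, 349, 237 and 65.8 TPM in skin libraries 1 to 4, against 18.2, 15.3, 19.7 and 7.54 TPM in tumor libraries 1 to 4 (log2 difference 3.83 ± 0.51, limma adjusted p = 4.82e-06). The feedback genes Smad7, Ski, Skil, Pmepa1 and Ldlrad4 were also called higher, with differences of 2.76 to 3.82, of which the call of Pmepa1 was lost with the Tmf1 term (adjusted p = 0.0661). The receptor genes Tgfbr1 and Tgfbr2 and the ligand gene Tgfb1 were not called, at 0.39, 0.61 and 0.93. With the Tmf1 term 10 members were called higher and 0 lower.

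Genes of circulation and of naive and stem-like cells went both ways. Of 24 circulation genes 4 were called higher and 3 lower, and of 22 naive and stem-like genes 5 were called higher and 2 lower, with medians of 0.046 and 0.037. Tcf7, which encodes the memory factor TCF-1, had 47.9, 74.9, 56.7 and 19.9 TPM in skin libraries 1 to 4, against 3.84, 9.59, 11.1 and 3.28 TPM in tumor libraries 1 to 4 (log2 difference 2.68 ± 0.61, limma adjusted p = 0.00479). Id3, a memory-linked inhibitor of E proteins, had 65, 92.1, 62.2 and 40.9 TPM in skin libraries 1 to 4, against 1.64, 3.69, 2.3 and 2.06 TPM in tumor libraries 1 to 4 (log2 difference 4.25 ± 0.86, limma adjusted p = 0.0015). Neither gene's groups overlapped. The naive and stem-like list had 3 called higher without tumor library 3 or 4, and 1 called lower without any single library but skin library 2 or tumor library 2.

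Il7r, the receptor chain for the survival cytokine IL-7, had 43, 68.2, 46.3 and 11.8 TPM in skin libraries 1 to 4, against 5.88, 6.81, 13.5 and 3.91 TPM in tumor libraries 1 to 4 (log2 difference 2.23 ± 0.42, limma adjusted p = 0.000694), with the call lost within high Tmf1 (adjusted p = 0.214). Klf2, which drives S1pr1, had 42.5, 57.3, 150.1 and 10.2 TPM in skin libraries 1 to 4, against 10.2, 8.65, 23.8 and 4.94 TPM in tumor libraries 1 to 4 (log2 difference 2.02 ± 0.46, limma adjusted p = 0.00451). Skin library 4 lay beside tumor library 1 and below tumor library 3 for Klf2, and the call did not hold in the fit of the 8 libraries alone (adjusted p = 0.157) or within high Tmf1 (difference -0.0052). The highest Klf2 level came from skin library 3, which also had the highest myeloid, hepatocyte and lung epithelial sums of the skin group. S1pr1 had 1.66, 4.91, 10.1 and 0.8 TPM in skin libraries 1 to 4, against 3.33, 3.73, 5.64 and 0.98 TPM in tumor libraries 1 to 4 and was not called (limma adjusted p = 0.994). Ccr7, the lymph node homing receptor, had 9.35, 9.51, 10.2 and 1.6 TPM in skin libraries 1 to 4, against 13.2, 1.94, 7.59 and 5.24 TPM in tumor libraries 1 to 4 and was not called.

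On the lower side, Ly6c2, a surface antigen of activated and memory CD8 cells, had 118, 36.2, 76.5 and 2.67 TPM in skin libraries 1 to 4, against 2169, 2005, 1252 and 1062 TPM in tumor libraries 1 to 4 (log2 difference -5.53 ± 1.22, limma adjusted p = 0.00351). Cx3cr1, a fractalkine receptor found on circulating effector cells, was instead higher in skin, with 116, 91.7, 77.6 and 33 TPM in skin libraries 1 to 4, against 10.6, 9.58, 12.7 and 5.12 TPM in tumor libraries 1 to 4 (log2 difference 2.86 ± 0.54, limma adjusted p = 0.000698). Pecam1 was called lower (log2 difference -3.49 ± 0.83, limma adjusted p = 0.00678), but the call did not hold with the Tmf1 term (adjusted p = 0.0851) and endothelial genes, which summed to 43.1, 44.2, 17.6 and 165 TPM in skin and 94.9, 192, 224 and 481 TPM in tumor, moved the same way. Eomes, a T-box factor, stayed under 1 TPM in skin, against 2.28 to 5.91 TPM in tumor (limma adjusted p = 0.0428). Its call was lost with the Tmf1 term (adjusted p = 0.391) and on leaving out any of 7 libraries, all but tumor library 4 (adjusted p 0.0619 to 0.133). The circulation list had 1 called lower without skin library 2 or 4 or tumor library 1, 2 or 3.

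The largest median difference of any list lay in immediate early genes, which are switched on within minutes of receptor or stress signals. Of 42 tested, 33 were called higher in skin and 0 lower, with a median difference of 3.58, where 3.79% of all genes were called higher. All 4 skin libraries lay above all 4 tumor libraries for 34 of them, against 6.49% of all genes. The count was also 33 higher and 0 lower with the Tmf1 term, and 31 to 36 were called when any library was left out. Fos, a subunit of AP-1, had 1743, 1952, 1242 and 825 TPM in skin libraries 1 to 4, against 4.28, 7.84, 7.62 and 6.1 TPM in tumor libraries 1 to 4 (log2 difference 7.55 ± 0.90, limma adjusted p = 9.27e-07). Gadd45b, a stress gene, had 2094, 2035, 1546 and 513 TPM in skin libraries 1 to 4, against 18.1, 13, 19.3 and 8.88 TPM in tumor libraries 1 to 4 (log2 difference 6.48 ± 0.41, limma adjusted p = 1.11e-11). For Fos the lowest skin library, at 825 TPM, stood far above the highest tumor library, at 7.84 TPM.

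Nr4a1, a nuclear receptor induced by T cell receptor signals, had 2954, 2189, 1124 and 533 TPM in skin libraries 1 to 4, against 19.7, 13, 32.1 and 5.76 TPM in tumor libraries 1 to 4 (log2 difference 6.46 ± 0.81, limma adjusted p = 2.19e-06). Dusp1, a phosphatase that ends MAP kinase signals, had 2304, 2522, 1842 and 588 TPM in skin libraries 1 to 4, against 32.5, 17.1, 19.3 and 24 TPM in tumor libraries 1 to 4 (log2 difference 6.07 ± 0.77, limma adjusted p = 2.31e-06). Atf3, a stress factor, had 422, 274, 377 and 94.8 TPM in skin libraries 1 to 4, against 3.03, 3.84, 4.66 and 4.87 TPM in tumor libraries 1 to 4 (log2 difference 5.66 ± 0.73, limma adjusted p = 3.13e-06). Skin library 4 was the lowest of its group for each of these genes and still above every tumor library. The related receptor Nr4a3 had 95.2, 81.2, 47.7 and 14 TPM in skin libraries 1 to 4, against 1.83, 1.31, 1.76 and 0.77 TPM in tumor libraries 1 to 4 (log2 difference 4.37 ± 0.47, limma adjusted p = 1.42e-07), while Nr4a2 and Egr2 were not called, at differences of 1.90 and 0.89. Myc, also induced early in activation, had a difference of -2.19 and was not called.

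Enzymatic digestion of tissue at 37 °C is known to induce these same genes during cell isolation. Skin was digested in that way, and the sources used here do not describe the procedure for tumor, so activation in the tissue and induction during isolation cannot be told apart. In the other digested or enzyme-treated tissues of the series Fos averaged 999 TPM in liver and 117 TPM in lung, and in the mechanically dissociated lymph nodes 21.3 TPM on day 12 and 28.4 TPM in memory cells. Dusp1 also averaged more in lung, 195 TPM, than in memory lymph nodes, 53.7 TPM. Other immediate early genes averaged less in lung than in memory lymph nodes. They include Nr4a1 (22.1 against 49.7 TPM), Gadd45b (49.9 against 66.8 TPM) and Nfkbid (22.25 against 49.7 TPM). Liver was above both lymph node groups for each of these genes. Cd69 and Rgs2, which are also on the residency list, averaged 335 and 1030 TPM in liver and 146 and 173 TPM in lung. In the lymph nodes Cd69 and Rgs2 averaged 58.9 and 17.6 TPM on day 12 and 133 and 163 TPM in memory cells. These are levels, with no test between them.

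Targets and brakes of NF-kappaB, a factor activated by receptor and cytokine signals, were higher in skin or not called. Of 21 tested, 8 were called higher and 0 lower, with a median of 0.74, and leaving out skin library 4 gave 12. Nfkbia, Nfkbid, Nfkbiz and Tnfaip3 are also on the list of immediate early genes, so the 2 lists are not separate. Tnfaip3, which encodes the brake A20, had 1453, 1222, 643 and 277 TPM in skin libraries 1 to 4, against 34.5, 30.2, 38.5 and 16 TPM in tumor libraries 1 to 4 (log2 difference 4.68 ± 0.57, limma adjusted p = 1.32e-06). Nfkbid, an inducible IkappaB protein, had 919.7, 812, 291 and 216 TPM in skin libraries 1 to 4, against 13.3, 14.9, 29.4 and 5.39 TPM in tumor libraries 1 to 4 (log2 difference 5.01 ± 0.56, limma adjusted p = 2.62e-07). Nfkbiz and Cd83 were higher by 4.14 and 3.83, and Cd83 reached 256 TPM in skin library 3, the library of high myeloid genes, against 19 to 43.8 TPM in the other skin libraries. The subunit genes Rela, Nfkb1, Nfkb2 and Relb were not called, with differences between -0.14 and 0.65.

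Heat shock genes moved less. Of 19 tested, 3 were called higher and 0 lower, with a median of 0.68, and the number was 5 without skin library 4 and 6 with the Tmf1 term. Dnaja1, a co-chaperone of HSP70, had 1696, 1260.0, 727 and 304 TPM in skin libraries 1 to 4, against 207, 157, 198 and 129 TPM in tumor libraries 1 to 4 (log2 difference 2.28 ± 0.39, limma adjusted p = 0.000221). Dnajb4 had 33.1, 35.1, 21.5 and 12.8 TPM in skin libraries 1 to 4, against 5, 4.16, 4.39 and 2.75 TPM in tumor libraries 1 to 4 (log2 difference 2.31 ± 0.58, limma adjusted p = 0.00999). Dnajb1 was higher by 1.91 ± 0.46 (limma adjusted p = 0.00771), a call lost without skin library 1 (adjusted p = 0.056) and in the fit of the 8 libraries alone (adjusted p = 0.0692). The inducible HSP70 genes Hspa1a and Hspa1b had differences of 2.55 and 2.75 and were not called, with skin libraries 1 and 2 high and skin libraries 3 and 4 near the tumor libraries. In the unfolded protein response 2 of 19 genes were called higher, Dnajb9 (2.85 ± 0.40) and Atf4 (1.80 ± 0.33), and 0 lower, against 1 lower without skin library 3. Atf4 was not called within high Tmf1 (adjusted p = 0.0947).

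**Figure D4:**
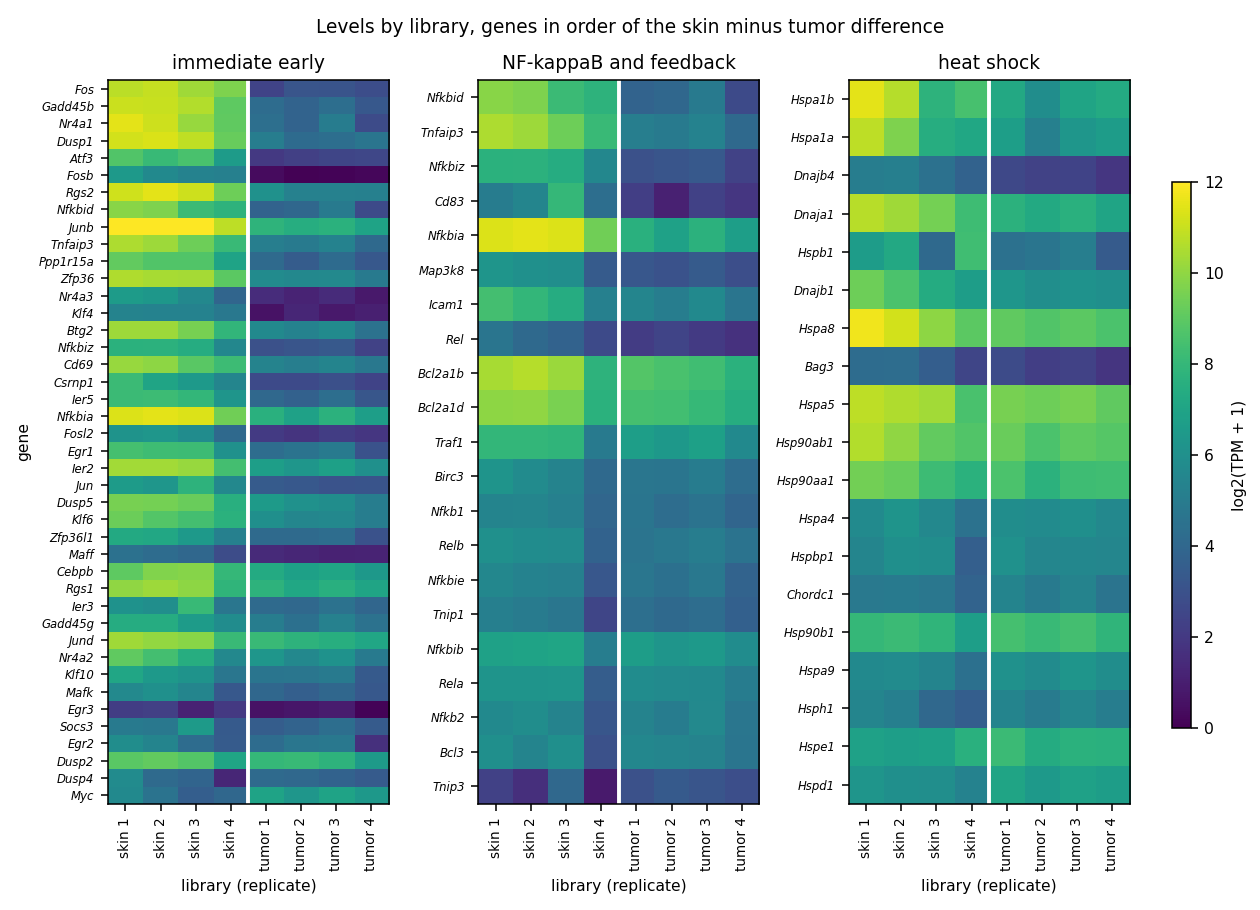
log2(TPM + 1) of immediate early, NF-kappaB and heat shock genes in the 4 skin libraries (left of the white line) and the 4 tumor libraries, genes ordered by their difference. In the immediate early panel 33 of 42 genes are called higher in skin, and skin libraries 1 to 3 are the brightest columns for most of them.

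Promoter sequences are shown for the 2 immediate early and the 2 heat shock genes of largest difference among those called, to show the start regions of the called genes that differed most in these lists. They are RefSeq sequences of mm10 (GRCm38.p6), 250 bases before to 50 after the start, with matches to a heat shock element in capitals.
Fos, chr12:85473640-85473939, plus strand: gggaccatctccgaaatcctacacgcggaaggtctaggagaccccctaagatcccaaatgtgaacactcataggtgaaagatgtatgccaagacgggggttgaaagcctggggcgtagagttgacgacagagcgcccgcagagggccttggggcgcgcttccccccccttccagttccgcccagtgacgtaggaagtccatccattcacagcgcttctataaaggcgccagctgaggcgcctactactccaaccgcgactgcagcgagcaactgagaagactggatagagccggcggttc
Gadd45b, chr10:80929841-80930140, plus strand: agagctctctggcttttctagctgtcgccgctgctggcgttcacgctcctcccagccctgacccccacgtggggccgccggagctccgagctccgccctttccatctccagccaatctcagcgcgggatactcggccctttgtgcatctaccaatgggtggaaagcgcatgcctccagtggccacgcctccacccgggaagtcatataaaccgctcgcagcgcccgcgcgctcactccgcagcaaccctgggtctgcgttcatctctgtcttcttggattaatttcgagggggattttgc
Dnajb4, chr3:152193796-152194095, minus strand, the second of 2 starts: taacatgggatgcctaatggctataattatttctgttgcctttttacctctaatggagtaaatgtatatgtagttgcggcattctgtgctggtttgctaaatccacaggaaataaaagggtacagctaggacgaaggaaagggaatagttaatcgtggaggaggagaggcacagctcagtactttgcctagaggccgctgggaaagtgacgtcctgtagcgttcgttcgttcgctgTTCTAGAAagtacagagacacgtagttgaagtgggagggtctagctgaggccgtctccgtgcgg
Dnaja1, chr4:40722218-40722517, plus strand, the first of 3 starts: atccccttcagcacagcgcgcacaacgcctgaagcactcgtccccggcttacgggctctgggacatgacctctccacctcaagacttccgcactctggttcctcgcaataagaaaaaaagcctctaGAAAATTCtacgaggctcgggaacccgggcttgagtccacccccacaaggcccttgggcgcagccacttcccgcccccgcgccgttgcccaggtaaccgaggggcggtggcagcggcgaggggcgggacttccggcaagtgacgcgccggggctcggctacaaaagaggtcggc
Motifs were searched on both strands as the cyclic AMP element TGACGTCA, the AP-1 site TGANTCA, the CArG box of serum response factor, and the heat shock elements GAANNTTC and TTCNNGAA. The window of Dnajb4 holds TTCTAGAA, 14 bases before the start, and that of Dnaja1 holds GAAAATTC, 124 bases before it, while the windows of Fos and Gadd45b, the other start of Dnajb4 and the other 2 starts of Dnaja1 hold none of the searched motifs. Of the 33 immediate early genes called higher, 27 have a promoter in the table, and the cyclic AMP element is in those of Btg2, Dusp1, Maff, Nfkbid and Ppp1r15a, 18.5% of them against 3.34% of 11305 tested genes with a promoter. The AP-1 site is in 11.1% against 7.05%, and the CArG box in 7.41% against 1.64%. The heat shock element GAANNTTC is in 11.1% against 7.41%, and TTCNNGAA in 0 of the 27 against 8.61%. A match is a description of letters and not a site.

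Several cytokine genes were higher in skin, and most genes of killing were not called. Of 15 cytokine genes tested 6 were called higher and 1 lower, with a median of 0.93, and in the fit of the 8 libraries alone 3 were called higher and 1 lower. Ifng, which encodes interferon gamma, had 3230.2, 2078, 1100.3 and 839 TPM in skin libraries 1 to 4, against 404, 438, 540.3 and 137 TPM in tumor libraries 1 to 4 (log2 difference 2.22 ± 0.59, limma adjusted p = 0.0156). All skin libraries were above all tumor libraries for Ifng, but its call was lost in the fit of the 8 libraries (adjusted p = 0.0576), without skin library 1 (0.0763), skin library 2 (0.0562) or tumor library 4 (0.0873), and within high Tmf1 (adjusted p = 0.118). Tnf had 191, 239, 78.9 and 78 TPM in skin libraries 1 to 4, against 19.7, 18.9, 45.9 and 6.12 TPM in tumor libraries 1 to 4 (log2 difference 2.76 ± 0.57, limma adjusted p = 0.002).

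Il2, the T cell growth factor gene, had 53.8, 91.5, 63.5 and 23.5 TPM in skin libraries 1 to 4, against 4.05, 2.77, 8.35 and 1.14 TPM in tumor libraries 1 to 4 (log2 difference 3.59 ± 0.69, limma adjusted p = 0.000873). Areg, which encodes amphiregulin, a growth factor for epithelium, had 40.2, 89.98, 41.3 and 14.7 TPM in skin libraries 1 to 4, against 0.41, 1.74, 0.39 and 0.06 TPM in tumor libraries 1 to 4 (log2 difference 4.68 ± 0.57, limma adjusted p = 1.43e-06). Both were above every tumor library in every skin library. Tnfsf14 and Csf2 were also called higher and Il21 lower, with the Tnfsf14 call lost with the Tmf1 term (adjusted p = 0.149). Among 12 chemokine genes 0 were called higher and 1 lower, Ccl3, which encodes an inflammatory chemokine. It had 390.1, 219.8, 133 and 51.1 TPM in skin libraries 1 to 4, against 1758, 2046, 1547 and 692 TPM in tumor libraries 1 to 4 (log2 difference -3.16 ± 0.82, limma adjusted p = 0.0134), a call lost without skin library 4 (adjusted p = 0.0558) and with the Tmf1 term (adjusted p = 0.0888). The related Ccl4 and Ccl5 were not called, at -0.80 and 0.15. Without skin library 4 the list had 1 called higher and 0 lower.

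Granzymes split by member. Gzmb, the granzyme that cleaves caspases, had 812, 358, 489 and 124 TPM in skin libraries 1 to 4, against 3278, 3276, 2626 and 2441 TPM in tumor libraries 1 to 4. Every skin library was below every tumor library (log2 difference -2.98 ± 0.55, limma adjusted p = 0.000585). Gzma, a tryptase of killer cells, showed the opposite order, with 1097, 175, 696 and 107 TPM in skin libraries 1 to 4, against 50.3, 4.53, 55.6 and 15 TPM in tumor libraries 1 to 4 (log2 difference 3.95 ± 0.90, limma adjusted p = 0.00488). The gene is on the NK cell marker list and made up most of its sum in every skin library. The other 8 NK cell markers summed to 5.79, 20.8, 466 and 21.5 TPM in skin libraries 1 to 4, against 48.4, 32.01, 55.3 and 49.1 TPM in tumor libraries 1 to 4. In skin library 3, the library of high myeloid genes, 463 TPM of that sum was Tyrobp, which myeloid cells also express, and Ncr1, which defines NK cells, was at 0.13 TPM or less in skin and at 1.22 TPM or less in tumor. The part of NK cells in the Gzma result was not tested. Within high Tmf1 the Gzma call was lost (adjusted p = 0.0679).

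Gzmf was under 1 TPM in every skin library and between 18.5 and 29.6 TPM in every tumor library (log2 difference -4.28 ± 0.28, limma adjusted p = 1.11e-11). Gzmc fell by 2.63 on the log2 scale, a call lost without skin library 4 (adjusted p = 0.109), tumor library 1 (0.0538) or tumor library 4 (0.0801). Gzmc, Gzmd, Gzme and Gzmf are near copies in 1 cluster, so reads may have been split between them. Prf1, which encodes perforin, had 126, 124, 112 and 19.9 TPM in skin libraries 1 to 4, against 447, 450.0, 347 and 239 TPM in tumor libraries 1 to 4, a difference of -2.21 ± 0.81 that was not called (limma adjusted p = 0.103), though no skin library reached the tumor range. Prf1 was called lower with array weights (limma adjusted p = 0.000411), weights per group (0.00553), quantile normalization (0.0208), the replicate block of skin and tumor alone (0.0316) and the wider rescaling (0.0442). It was not called with the Tmf1 term (0.219) or in the fit of the 8 libraries alone (0.0599). In all, 1 of 18 cytotoxic genes was called higher, 3 lower and 14 not called, with a median of -0.012, so the list as a whole did not shift. The counts were 3 higher and 2 lower without skin library 4, and 5 lower without tumor library 2.

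Inhibitory receptors were lower or not called, with 1 exception. Of 17 tested, 1 was called higher and 3 lower, with a median of -0.62, and with the Tmf1 term 1 was called higher and 1 lower. Lag3, a receptor for class II MHC on exhausted cells, had 2.65, 0.85, 2.07 and 0.78 TPM in skin libraries 1 to 4, against 24.5, 23.4, 19.4 and 15.8 TPM in tumor libraries 1 to 4 (log2 difference -3.12 ± 0.33, limma adjusted p = 1.42e-07). Entpd1, which encodes the ectonucleotidase CD39, had 12.4, 7.01, 18.4 and 3.77 TPM in skin libraries 1 to 4, against 81.9, 66.6, 66.6 and 39.1 TPM in tumor libraries 1 to 4 (log2 difference -2.64 ± 0.64, limma adjusted p = 0.00843), a call at the edge with the Tmf1 term (adjusted p = 0.0508). Cd160 was called lower (limma adjusted p = 0.0411), but not with the Tmf1 term (adjusted p = 0.126) or without skin library 1, 2 or 4 or tumor library 1, 2 or 3 (0.0526 to 0.165).

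Pdcd1, which encodes PD-1, was high at both sites, with 668, 571, 482 and 42.7 TPM in skin libraries 1 to 4, against 601, 499.9, 472 and 315 TPM in tumor libraries 1 to 4 (difference -0.62 ± 0.76, limma adjusted p = 0.768). Skin libraries 1 to 3 overlapped the tumor libraries and skin library 4 lay below them all. Tigit, Ctla4 and Btla were not called, at -1.68, -1.32 and -0.46. The receptor called higher was Cd101, given above with the residency genes.

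Among transcription factors linked to exhaustion, Tox, which maintains exhausted CD8 cells, had 12.5, 8.06, 6.39 and 3.21 TPM in skin libraries 1 to 4, against 109, 70.8, 93 and 48.6 TPM in tumor libraries 1 to 4. No libraries overlapped (log2 difference -3.31 ± 0.61, limma adjusted p = 0.000516). With Eomes, given above, 2 of 18 were called lower, and Nr4a1 and Nr4a3, which are also immediate early genes, were the 2 called higher, against 4 without skin library 4. Without any single library but tumor library 4 the number called lower was 1. Batf, Nfatc1, Irf4 and Tbx21 were not called, at -1.56, -1.62, 0.90 and 1.39.

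Costimulatory genes again separated by member. Cd40lg, the CD40 ligand better known on helper T cells, had 282, 335, 145 and 69 TPM in skin libraries 1 to 4, against 2.85, 4.32, 2.56 and 0.57 TPM in tumor libraries 1 to 4 (log2 difference 5.75 ± 0.42, limma adjusted p = 1.23e-10). Icos had 512, 700.1, 433 and 82 TPM in skin libraries 1 to 4, against 54.2, 78.9, 69.9 and 24.8 TPM in tumor libraries 1 to 4 (log2 difference 2.66 ± 0.53, limma adjusted p = 0.00128), a call lost within high Tmf1 (adjusted p = 0.392). Tnfrsf4, which encodes OX40, had 12.3, 7.57, 16 and 0.06 TPM in skin libraries 1 to 4, against 229.5, 138, 159 and 119 TPM in tumor libraries 1 to 4 (log2 difference -4.55 ± 0.78, limma adjusted p = 0.000228). Cd40lg and Tnfrsf4 are both on the list of CD4 and regulatory T cell markers, whose sum was 352, 365, 186 and 91.3 TPM in skin and 268, 172, 198 and 158 TPM in tumor. Cd7, a surface protein of T and NK cells, had 159, 254, 194 and 53.5 TPM in skin libraries 1 to 4, against 60.1, 45, 62.9 and 10.3 TPM in tumor libraries 1 to 4 (log2 difference 1.93 ± 0.56, limma adjusted p = 0.0278), with skin library 4 below tumor libraries 1 and 3. Its call was lost with the Tmf1 term (adjusted p = 0.116), in the fit of the 8 libraries alone (adjusted p = 0.122), within high Tmf1 (adjusted p = 0.588) and without skin library 1, 2 or 3 or tumor library 4 (0.0685 to 0.167). Of 14 genes 3 were called higher and 1 lower. The 15 killer lectin receptor genes gave 0 calls with limma in either direction, and their median was -0.58.

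Cell cycle genes were lower in skin or not called. Of 41 tested, 0 were called higher and 18 lower, with a median of -1.80, where 3.54% of all genes were called lower. All 4 skin libraries lay below all 4 tumor libraries for 35 of them, against 9.0% of all genes. The number called lower was 17 with the Tmf1 term, 32 in the fit of the 8 libraries alone, 11 without skin library 4 and 10 without tumor library 1. Plk1, a mitotic kinase, had 3.52, 4.44, 2.22 and 3.72 TPM in skin libraries 1 to 4, against 48.8, 37.2, 42.6 and 31.9 TPM in tumor libraries 1 to 4 (log2 difference -3.21 ± 0.58, limma adjusted p = 0.000452). Aurkb, the kinase of the chromosomal passenger complex, had 9.62, 8.11, 8.82 and 5 TPM in skin libraries 1 to 4, against 73.1, 50.2, 55 and 47.3 TPM in tumor libraries 1 to 4 (log2 difference -2.70 ± 0.66, limma adjusted p = 0.00886). Cenpa, the centromeric histone, had 73.1, 46.5, 48.3 and 20.03 TPM in skin libraries 1 to 4, against 332, 236, 203 and 185 TPM in tumor libraries 1 to 4 (log2 difference -2.42 ± 0.41, limma adjusted p = 0.0002). The skin range ended below the tumor range for all of them.

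The helicase genes Mcm2, Mcm3, Mcm5, Mcm6 and Mcm7 were called lower too, with differences of -1.76 to -2.42, and the Mcm7 call was lost with the Tmf1 term (adjusted p = 0.0644). Aurka was called lower (limma adjusted p = 0.0213), but not with the Tmf1 term (adjusted p = 0.123) or without skin library 4 (0.0742), tumor library 1 (0.0592) or tumor library 2 (0.0532). Mki67, the standard proliferation marker, was low at both sites, with 6.8, 4.78, 6.86 and 2.29 TPM in skin libraries 1 to 4, against 9.76, 8.46, 8.73 and 6.52 TPM in tumor libraries 1 to 4, and was not called (limma adjusted p = 0.47). Pcna, the replication clamp, had a difference of -0.12 and was not called. The cyclin genes Ccnb1 and Ccna2 had differences of -2.60 and -2.26 and also missed the threshold.

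Inhibitors of division were higher or not called. Of 20 genes of this list 10 were called higher and 0 lower, with a median of 1.27, and 7 were called higher with the Tmf1 term. Cdkn1a, the p21 inhibitor of cyclin-dependent kinases, had 1049, 730.0, 827 and 325 TPM in skin libraries 1 to 4, against 83.7, 55.3, 56.2 and 63.2 TPM in tumor libraries 1 to 4 (log2 difference 3.38 ± 0.46, limma adjusted p = 6.37e-06). Btg2, an antiproliferative gene that is also immediate early, had 1202, 1203, 746 and 239.7 TPM in skin libraries 1 to 4, against 51.3, 39, 52.8 and 21.7 TPM in tumor libraries 1 to 4 (log2 difference 4.16 ± 0.41, limma adjusted p = 4.19e-08). Tob1, a quiescence gene of T cells, had 180.1, 159, 106 and 61.8 TPM in skin libraries 1 to 4, against 6.52, 6.16, 9.02 and 3.81 TPM in tumor libraries 1 to 4 (log2 difference 4.05 ± 0.43, limma adjusted p = 1.46e-07). Klf4, which restrains T cell division and is abundant in epidermis, had 39.9, 39.3, 39.3 and 27.4 TPM in skin libraries 1 to 4, against 0.51, 1.42, 0.78 and 1.07 TPM in tumor libraries 1 to 4 (log2 difference 4.27 ± 0.58, limma adjusted p = 6.72e-06). Like Btg2, Klf4 is also on the list of immediate early genes, which digestion can induce. Keratinocyte genes were called higher in 8 of 17 cases, as given above. The part of digestion and of keratinocyte genes in the Klf4 result was not tested. In each of these genes the groups stood apart, and the Cdkn2 genes and Cdkn1b were not called.

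Interferon-response genes were lower in skin or not called, with 1 exception. Of 30 type I interferon genes 0 were called higher and 14 lower, with a median of -1.49, and of 26 interferon gamma and class I presentation genes 1 was called higher and 10 lower, with a median of -1.02. Usp18, which switches off interferon receptor signalling, had 9.11, 6.09, 28.8 and 3.52 TPM in skin libraries 1 to 4, against 81.6, 88.5, 77.9 and 42.5 TPM in tumor libraries 1 to 4 (log2 difference -2.84 ± 0.56, limma adjusted p = 0.00123). Psmb9, an immunoproteasome subunit, had 124, 158, 198 and 43.4 TPM in skin libraries 1 to 4, against 723, 512, 451 and 383 TPM in tumor libraries 1 to 4 (log2 difference -2.13 ± 0.32, limma adjusted p = 3.54e-05). Neither gene's groups overlapped.

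Ifit1bl1, of the interferon-induced Ifit family, had 2.42, 2.16, 2.98 and 0.51 TPM in skin libraries 1 to 4, against 71.7, 92.3, 69.9 and 29.3 TPM in tumor libraries 1 to 4 (log2 difference -4.44 ± 0.50, limma adjusted p = 3.18e-07). Ifi27l2a, another interferon-induced gene, had 174, 303, 1267 and 38.8 TPM in skin libraries 1 to 4, against 5974, 4686, 3914 and 2836 TPM in tumor libraries 1 to 4 (log2 difference -4.21 ± 0.70, limma adjusted p = 0.000141). Ifit3 had 10.8, 4.45, 55.4 and 3.82 TPM in skin libraries 1 to 4, against 69.9, 84.1, 124 and 35.4 TPM in tumor libraries 1 to 4 (log2 difference -2.65 ± 0.50, limma adjusted p = 0.000746), with skin library 3 above tumor library 4, and was not called in the fit of the 8 libraries alone (0.0761). Skin library 3 had the highest value of the skin group for Usp18, Psmb9, Ifi27l2a and Ifit3. It was also the skin library with the highest myeloid, hepatocyte and lung epithelial sums, and their part in these values was not tested. Ifng was higher in skin, as given above, while these response genes were lower.

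The counts of interferon genes leaned on single libraries. Without skin library 4 the type I list had 9 called lower. The interferon gamma list had 6 called lower without skin library 4 or tumor library 3, and 5 without tumor library 1 or 2. With the Tmf1 term 15 of the type I and 7 of the interferon gamma genes were called lower. Irf8, an interferon-induced factor, fell by 2.89 on the log2 scale (limma adjusted p = 0.0119), lost with that term (0.129). Oas1a, Rtp4, Iigp1 and Gbp3 were called lower at adjusted p = 0.0187, 0.0324, 0.0355 and 0.0208, and each rested on several libraries. Oas1a was lost without skin library 1 or 4 or tumor library 1, 2 or 3 (0.0506 to 0.0862), and Gbp3 without skin library 4 or tumor library 1, 2 or 3 (0.0547 to 0.0941). Rtp4 and Iigp1 were lost without skin library 1, 2 or 4 or tumor library 1, 2 or 3 (0.0611 to 0.116 and 0.0521 to 0.147). The calls of Rtp4 and Gbp3 were also lost with the Tmf1 term (adjusted p = 0.0787 and 0.0664). Socs1, which dampens interferon signalling, was the member called higher, lost with the Tmf1 term (adjusted p = 0.187), with 4 called without skin library 4 and 0 without skin library 1, 2 or 3 or tumor library 2 or 4. The class I heavy chain genes H2-K1 and H2-D1 and B2m were not called, at 0.62, 0.86 and 0.20.

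**Figure D5:**
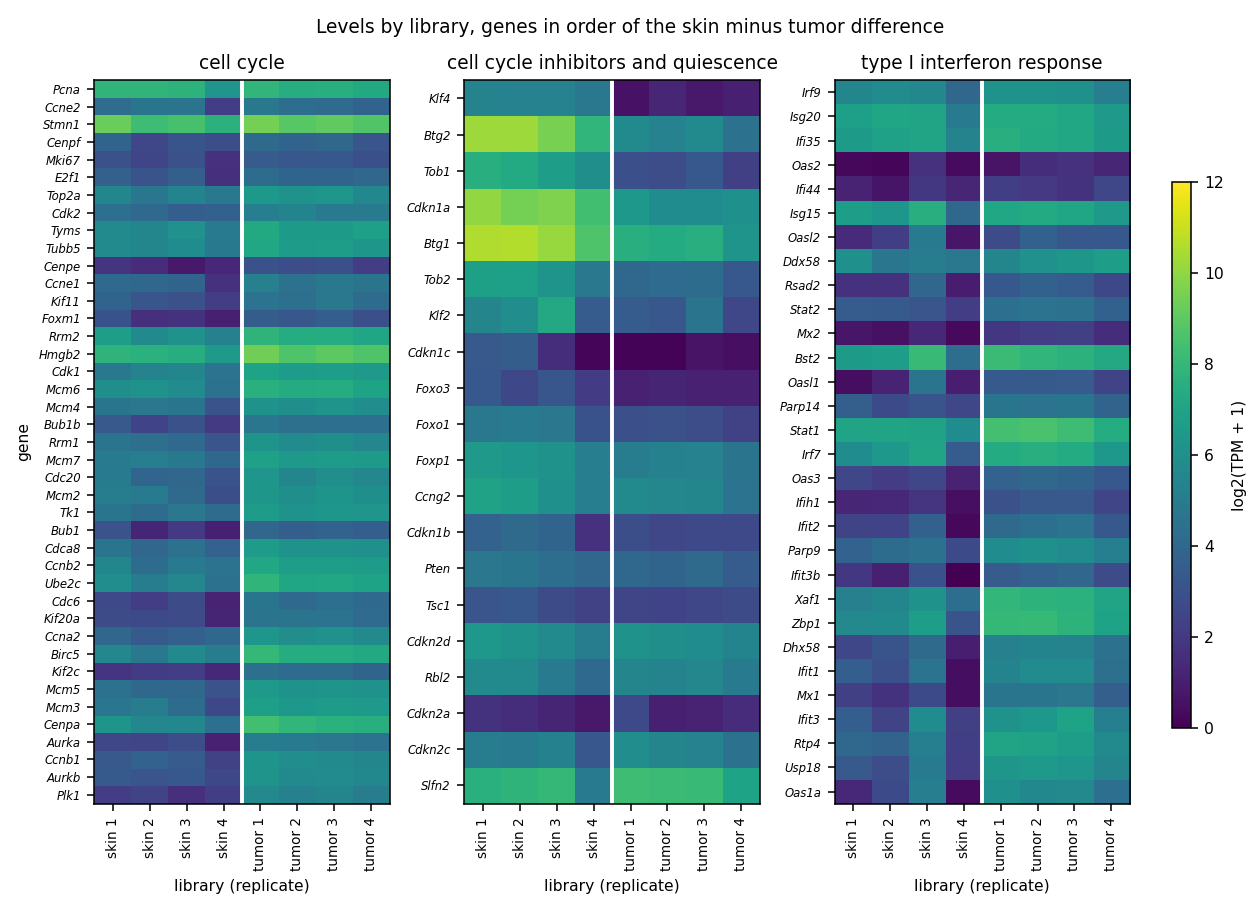
log2(TPM + 1) of cell cycle genes, cell cycle inhibitors and type I interferon response genes in the 4 skin libraries (left of the white line) and the 4 tumor libraries, genes ordered by their difference. Of the cell cycle genes 18 of 41 and of the interferon genes 14 of 30 are called lower in skin, while 10 of 20 inhibitors are called higher.

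The Gimap family, GTPases of lymphocyte survival encoded in 1 cluster, was lower in skin almost throughout. Of 8 members tested 7 were called lower and 0 higher, with a median of -2.84, where 3.54% of all genes were called lower. All 8 had every skin library below every tumor library, against 9.0% of all genes. Gimap7 had 1.79, 0.45, 0.3 and 1.23 TPM in skin libraries 1 to 4, against 474, 368, 371 and 163 TPM in tumor libraries 1 to 4 (log2 difference -7.44 ± 0.78, limma adjusted p = 9.62e-08). Gimap4 had 43, 53.9, 56.5 and 10.6 TPM in skin libraries 1 to 4, against 1089.6, 986, 838 and 416 TPM in tumor libraries 1 to 4 (log2 difference -4.46 ± 0.40, limma adjusted p = 7.14e-09). Gimap6 and Gimap9 were lower too, with differences of -2.98 and -2.89, and Gimap8, at -1.04, was not called. Gimap7 thus lay at 1.79 TPM or less in every skin library, on both sides of the Tmf1 split.

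Chemokine receptors differed in 5 of 19 genes, all higher in skin. Ccr8, a skin homing receptor, had 279, 415, 335 and 84.2 TPM in skin libraries 1 to 4, against 16.6, 23.4, 14.1 and 13.8 TPM in tumor libraries 1 to 4 (log2 difference 3.77 ± 0.80, limma adjusted p = 0.00241). Cxcr4, the receptor for CXCL12, had 36.8, 52.5, 52.9 and 12.9 TPM in skin libraries 1 to 4, against 2.02, 1.39, 1.7 and 1.32 TPM in tumor libraries 1 to 4 (log2 difference 3.76 ± 0.50, limma adjusted p = 5.56e-06). Gpr183, a receptor for oxysterols that guides lymphocytes, had 106, 106, 130.4 and 21.6 TPM in skin libraries 1 to 4, against 10.6, 4.87, 6.92 and 5.31 TPM in tumor libraries 1 to 4 (log2 difference 3.32 ± 0.41, limma adjusted p = 1.74e-06). All skin libraries were above all tumor libraries in each. Ccr10, the receptor for the keratinocyte chemokine CCL27, was called higher (log2 difference 2.92 ± 0.80, limma adjusted p = 0.0191), with 44.5 TPM in skin library 2 against 2.6 to 11.8 TPM in the other skin libraries and 0.16 to 1.54 TPM in tumor. It was lost without skin library 2 (0.112), tumor library 1 (0.0608) or tumor library 4 (0.0596) and with the Tmf1 term (adjusted p = 0.193). Cxcr3, a receptor of inflamed tissue, was not called, at -0.32. Without skin library 1 or 3 the list had 1 called lower.

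Over all genes 3.79% were called higher and 3.54% lower. The counts of lipid, oxidative phosphorylation and cholesterol genes, given below, lay near these shares and are no result about those lists. That of glycolysis and hypoxia genes called lower lay above its share, but leaned on single libraries. In glycolysis and hypoxia 1 of 34 genes was called higher and 5 lower, with a median of -0.45. Tpi1, which encodes triose phosphate isomerase, had 153, 203, 177 and 106 TPM in skin libraries 1 to 4, against 757, 576, 567 and 515 TPM in tumor libraries 1 to 4 (log2 difference -1.93 ± 0.29, limma adjusted p = 3.24e-05). Pgk1 and Pgam1 fell by 1.41 and 1.40 on the log2 scale. Both calls were lost with the Tmf1 term (adjusted p = 0.071 and 0.117), without skin library 4 (0.0938 and 0.0673) and without tumor library 1 (0.0823 and 0.0593), and that of Pgk1 also without skin library 1 (0.0561), tumor library 2 (0.061) or tumor library 3 (0.0511). The list had 1 gene called lower without skin library 4 or tumor library 1 and 3 without skin library 1, tumor library 2 or tumor library 3. Hilpda, a lipid droplet gene induced by hypoxia, had 369, 351, 353 and 82.3 TPM in skin libraries 1 to 4, against 73.3, 44.2, 42.2 and 40.9 TPM in tumor libraries 1 to 4 (log2 difference 2.33 ± 0.50, limma adjusted p = 0.00256), with the call lost within high Tmf1 (adjusted p = 0.153).

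Fabp4, a fatty acid carrier, had 30.6, 40.01, 23.7 and 15.9 TPM in skin libraries 1 to 4, against 1.3, 0.99, 2.3 and 0.08 TPM in tumor libraries 1 to 4 (log2 difference 3.75 ± 0.62, limma adjusted p = 0.000139). It is also a fat and endothelial gene, and the summed muscle and fat markers were 22.4, 12.2, 21.9 and 12.7 TPM in skin and 22.9, 17.7, 27.2 and 20.9 TPM in tumor. It was the 1 of 24 lipid genes called higher, and the 1 called lower, the oxidation enzyme Acadl (limma adjusted p = 0.0184), was lost without skin library 4 (0.0658), tumor library 1 (0.0706) or tumor library 2 (0.0518) and with the Tmf1 term (adjusted p = 0.0593). The Fabp4 relative Fabp5 had 153, 80.3, 63.5 and 704 TPM in skin libraries 1 to 4, against 121, 187, 139.7 and 104 TPM in tumor libraries 1 to 4, was not called, and peaked in skin library 4, the library of most keratinocyte genes. In oxidative phosphorylation 2 of 38 genes were called lower, Cycs, lost with the Tmf1 term (adjusted p = 0.157), and Sdhb, against 1 without skin library 1, 2 or 4 or tumor library 2 or 3 and 0 without tumor library 1. In cholesterol synthesis and uptake 1 of 22 genes was called higher, the exporter Abcg1 (limma adjusted p = 0.0218), and 0 lower. The Abcg1 call was lost without skin library 1, 2 or 3 or tumor library 1 or 2 (0.0502 to 0.0808) and with the Tmf1 term (adjusted p = 0.0817). Of 18 cytokine receptor genes Il7r was called higher and Il10ra lower (limma adjusted p = 0.044), with 3 higher without skin library 4, and Il10ra was lost without skin library 2 or 4 or tumor library 1, 2 or 3 (0.0538 to 0.192) and with the Tmf1 term (adjusted p = 0.131).

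Few genes of survival and death were called. Pmaip1, which encodes the BH3 protein NOXA, had 141, 110.3, 91 and 39.6 TPM in skin libraries 1 to 4, against 20.7, 18.1, 23.6 and 14.9 TPM in tumor libraries 1 to 4 (log2 difference 2.13 ± 0.51, limma adjusted p = 0.00774). Bcl2 was not called, at -1.74. Of 23 genes 2 were called higher and 2 lower, with a median of -0.0060, where 3.79% and 3.54% of all genes were called. With the Tmf1 term 1 was called higher and 1 lower. The calls of Bbc3, higher (limma adjusted p = 0.0185) and Casp8, lower (0.0423), did not hold with the Tmf1 term (adjusted p = 0.154 and 0.0773). Bbc3 was also lost without skin library 1, 2 or 3 or tumor library 3 or 4 (0.0525 to 0.0793), and Casp8 without skin library 1 or 4 or tumor library 1, 2 or 3 (0.0565 to 0.177). Without skin library 4 the list had 5 called higher.

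Among S100, annexin and galectin genes 5 of 17 were called higher and 0 lower, and with the Tmf1 term 1 was called higher. Anxa1, an anti-inflammatory annexin, had 617, 670.4, 576 and 378 TPM in skin libraries 1 to 4, against 55.1, 58.2, 39.2 and 36.8 TPM in tumor libraries 1 to 4 (log2 difference 3.53 ± 0.58, limma adjusted p = 0.000133). Ahnak, Lgals3 and Vim were called higher, at 2.97, 2.06 and 1.43, and were lost with the Tmf1 term (adjusted p = 0.124, 0.226 and 0.179). Lgals3 was also lost without skin library 1, 2 or 3 or tumor library 4 (0.0571 to 0.068), and Vim without skin library 1, 2 or 3 or tumor library 2, 3 or 4 (0.0574 to 0.125). The list had 3 called higher without skin library 1 and 2 without skin library 2, skin library 3 or tumor library 4. Keratinocytes and stromal cells also make these proteins, and fibroblast genes were higher in every skin library and 8 of 17 keratinocyte genes were called higher, as given above. Their part in these results was not tested. Ribosomal protein genes had 1 of 32 called lower, Rpl27 (limma adjusted p = 0.0233), and 0 higher. Rpl27 was lost without skin library 1 or 2 or tumor library 1 or 2 (0.0505 to 0.114), and without skin library 3 the list had 2 called lower.

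The largest differences outside these lists were the following. Lmna, which encodes lamin A and C of the nuclear envelope, had 2785, 2555, 2296 and 614 TPM in skin libraries 1 to 4, against 12.6, 23.4, 19.1 and 14.1 TPM in tumor libraries 1 to 4 (log2 difference 6.64 ± 0.60, limma adjusted p = 7.6e-09). Tsc22d3, the glucocorticoid-induced leucine zipper, had 1393, 1341, 1284 and 419 TPM in skin libraries 1 to 4, against 29.98, 24.4, 28.5 and 13.9 TPM in tumor libraries 1 to 4 (log2 difference 5.37 ± 0.44, limma adjusted p = 1.34e-09). Trat1, an adaptor of the T cell receptor complex, had 389.8, 701, 405 and 159 TPM in skin libraries 1 to 4, against 8.38, 8.77, 16 and 3.87 TPM in tumor libraries 1 to 4 (log2 difference 5.29 ± 0.53, limma adjusted p = 4.37e-08). The groups did not overlap for any of them, and skin library 4 was the lowest of its group for each. Tppp3, a tubulin-binding gene, was higher by 5.36 ± 0.92 (limma adjusted p = 0.000226). H3f3c, an intronless copy of a histone H3.3 gene, had 136, 272, 189.8 and 88 TPM in skin libraries 1 to 4, against 0, 0, 0 and 3.01 TPM in tumor libraries 1 to 4 (log2 difference 6.81 ± 0.68, limma adjusted p = 4.19e-08), a value that is uncertain because reads can be shared with its near-identical relatives.

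On the lower side, Plac8, expressed in effector T cells and myeloid cells, had 11.3, 9.76, 74.2 and 8.88 TPM in skin libraries 1 to 4, against 975, 608, 427 and 419.8 TPM in tumor libraries 1 to 4 (log2 difference -5.01 ± 0.51, limma adjusted p = 6.83e-08). Zbtb32, a zinc finger repressor in lymphocytes, had 0.63, 1.04, 4.2 and 0.49 TPM in skin libraries 1 to 4, against 57, 50.4, 57.1 and 23.7 TPM in tumor libraries 1 to 4 (log2 difference -4.34 ± 0.50, limma adjusted p = 4.92e-07). Nrgn, neurogranin, had 24.1, 10.9, 26.8 and 3.03 TPM in skin libraries 1 to 4, against 405, 266, 203 and 191 TPM in tumor libraries 1 to 4 (log2 difference -4.24 ± 0.61, limma adjusted p = 1.59e-05). In all of them the groups stood apart, and Plac8 was highest of the skin group in library 3. Slc16a11, a monocarboxylate transporter family member, had 2.55, 0.41, 0.58 and 1.44 TPM in skin libraries 1 to 4, against 63, 28.5, 35.4 and 26.4 TPM in tumor libraries 1 to 4 (log2 difference -4.14 ± 0.41, limma adjusted p = 4.41e-08).

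Sprr2a2 and Klk6, an envelope protein and a protease of epithelium, were also lower (-5.19 ± 1.05 and -4.35 ± 0.40), with at most 21.6 and 3.91 TPM in skin, against 80.1 to 631 TPM and 17.8 to 93 TPM in tumor. Both peaked in tumor library 2, which had the largest keratinocyte and melanocyte sums of the tumor group. The pseudogene Rpl38-ps2 read 0 in skin libraries 1 to 3, 39.2 TPM in skin library 4 and 144 to 307 TPM in tumor. It follows the Tmf1 split and was not called with that term (adjusted p = 0.0625).

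Levels across the 8 groups show which side stood apart from the rest of the series, as a description without a test. Of the 60 named genes called higher, skin had the highest mean of the 8 groups for 38 and tumor the lowest for 24. Of the 46 called lower, tumor had the highest mean for 26 and skin the lowest for 15. These genes were called by their skin and tumor values, which favours such ranks in advance, so the counts are no separate result. Itgae averaged 381 ± 207 TPM in skin, 0.81 ± 0.612 TPM in tumor (SD, n = 4 each) and 40.9 to 325 TPM in the other groups. Itgb7 averaged 496 ± 269 TPM in skin, 39.2 ± 13.5 TPM in tumor and 414 to 815 TPM elsewhere. For both CD103 chains tumor was the lowest group, below naive cells.

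Gimap7 averaged 0.943 ± 0.697 TPM in skin, 344 ± 130.1 TPM in tumor and 48 to 215 TPM in the other groups, so skin was the group that stood apart. Tox averaged 7.54 ± 3.86 TPM in skin, 80.5 ± 26.5 TPM in tumor and 4.44 to 26.2 TPM elsewhere. Gzmb averaged 446 ± 287 TPM in skin, 2905 ± 436 TPM in tumor and 0.83 to 1192 TPM elsewhere. For Tox and Gzmb tumor was the highest group. Ifng averaged 1812 ± 1086 TPM in skin, 379.9 ± 172 TPM in tumor and 0.16 to 194 TPM elsewhere, with skin the highest and tumor next. Slc16a11 averaged 38.3 ± 16.9 TPM in tumor and at most 1.25 TPM in any other group, skin being that highest other group.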

How the data were processed

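Bulk RNA sequencing values of 32 libraries were used. Alignment was with Bowtie to mm10, per the submitters' processing notes; the sources used here do not give the version, annotation or counting. The authors deposited natural log values of TPM + 1, settled from the values: converted back, all are multiples of 0.01 TPM and every library sums to the same total. Read depth is unknown. Of 46517 gene names 90.2% matched a GENCODE symbol. log2(TPM + 1) of 19738 genes with at least 1 TPM in 4 libraries entered 1 limma 3.58.1 fit (R 4.3.3) of 8 groups, with a variance trend and 24 residual degrees of freedom, tested on simulated data. Genes with a Benjamini-Hochberg adjusted p under 0.05 were called. Marker sums were compared by exact permutation (SciPy 1.17.1). Named genes are a core list, the 12 largest non-overlapping calls in each direction above a mean log2 of 3 without predicted, receptor, mitochondrial and marker genes, and up to 4 called members per list. Some items the rule names are not reported here. A few other list members are given by their difference alone, chosen after their values were seen. Members, lists and tests were chosen with earlier results of these data known. Alternatives set with the design covered filter, pseudocount, samples fitted, weights, scaling, replicate block and left-out libraries; the terms for Tmf1 and T cell identity, the high-Tmf1 fit and a wider rescaling were chosen after seeing the data.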

Additional observations from a re-analysis of the deposited data

Results flagged for a closer look

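Among 114 groups of 4 values examined, 15 held a library whose gap to its nearest neighbour took up more of the group's range than Dixon's critical value allows, where chance gives about 1 in 20 groups. The values here are log2(TPM + 1). Skin library 4 was the low outlier of the skin group for Cxcr6 (8.41), Ccr7 (1.38), Prf1 (4.39), Pdcd1 (5.45), Lmna (9.26), Tsc22d3 (8.72) and Gimap4 (3.53), and for the summed T cell receptor and identity genes (12.5), and the high outlier for Rpl38-ps2 (5.33). It is the skin library of high Tmf1 and of the most Gm10800. Skin library 3, the library of high myeloid genes, was the high outlier for Plac8 (6.23).

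In the tumor group, library 4 was the low outlier for Prdm1 (4.21) and Zbtb32 (4.63) and the high outlier for H3f3c (2.004), which read 0 in the other tumor libraries. Library 1 was the high outlier for Rgs2 (6.09), and library 2 for the summed melanocyte and melanoma genes (9.98).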

How the results depend on the processing

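Both totals of called genes, 749 higher and 699 lower, stayed within 1.5 times under all but 4 of the settings tried. A pseudocount of 0.1 gave 485 and 418, array weights 2676 and 2301, weights per group 1151 and 1088, and the high-Tmf1 libraries alone 1814 and 6091. Leaving out single libraries gave 510 to 1015 higher and 467 to 625 lower. Of the 106 named calls, 91 held in the fit of skin and tumor alone, 92 without skin library 4 and tumor library 4, the libraries of lowest T cell identity, and 81 whichever library was left out. A pseudocount of 0.1 ended 11 named calls, Dnajb4 (0.131) among them. Directions turned for Klf2 in the high-Tmf1 fit (-0.0052) and otherwise for genes that were not called. S1pr1 was -0.0040 at a pseudocount of 0.1, -0.060 after quantile normalization, -0.021 and -0.038 after the 2 rescalings, and -1.17 in high-Tmf1 libraries, where Ccr7 was -1.40. Zfp683, Prdm1, Cxcr6, Pdcd1 and Fabp5 were 0.10, 0.14, 0.12, 0.039 and -0.60 with array weights, and 0.25, 0.18, 0.062, 0.13 and -0.67 without skin library 4 and tumor library 4. With T cell identity as a term Zfp683, Prdm1, Cxcr6 and Fabp5 were 0.022, 0.057, 0.15 and -0.053. With 1 library left out Zfp683 ranged between -0.47 and 0.42, Prdm1 between -0.31 and 0.23, Cxcr6 between -0.38 and 0.33, S1pr1 between -0.41 and 0.46, Ccr7 between -0.28 and 0.64, Pdcd1 between -1.01 and 0.31, and Fabp5 between -0.54 and 0.61. The cause was not tested.

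The labels do not say whether equal replicate numbers pair the samples. The deviations of same-numbered skin and tumor libraries correlated at -0.18, 0.15, -0.02 and 0.44, and 1 of 4 skin libraries and 2 of 4 tumor libraries correlated best with their own number. These correlations cannot decide it, because the libraries also differ by the Tmf1 split and by genes of other cells. With a replicate block 781 genes were called higher and 746 lower, and 541 and 605 in the block fit of skin and tumor alone. Depth is unknown, so counting error at low TPM could not be given.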
